A study of Mus musculus with 6 samples.

Results

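The beta-2 integrin genes Itgam, Itgal, Itgax, Itgad and Itgb2 were examined in 6 bulk RNA-seq libraries of mouse corneal epithelium. These 5 genes were taken by symbol from a deposited table of 17866 protein-coding genes. Itgam was chosen by its own readout, a high level in wild type epithelium that leukocyte genes did not match, and the other 4 genes were added as its family. The level of Itgam, its comparison with leukocyte genes and its comparison with Itgb2 are therefore given as descriptions, with no test. All mice were C57BL/6 and 6 months of age, and the labels divided the libraries into 3 wild type (WT) and 3 Rela-/- (KO), and name no treatment. In the study, the KO mice carried Krt14-Cre with a floxed Rela allele, so that the p65 subunit of NF-κB was lost from the K14-expressing lineage. Whether other cells of the tissue kept an intact gene was not measured in these bulk libraries. At this age the study describes a keratinized, skin-like central epithelium in KO, with K1 in place of K12 and loss of Pax6. It also describes remodeled stroma with vessels and CD45-positive cells. KO and WT thus differed in tissue state as well as in genotype. The WT mice were age-matched controls. Each library came from an independent biological sample of the separated epithelial layer.

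Integrins are adhesion receptors made of an alpha and a beta subunit, which must join inside the cell before the receptor can travel to the surface. The beta-2 integrins are known as the integrins of leukocytes. All share the beta subunit CD18, encoded by Itgb2, and differ in the alpha subunit, which is CD11b for Itgam (the receptor Mac-1, also called complement receptor 3), CD11a for Itgal (LFA-1), CD11c for Itgax and CD11d for Itgad. In the cornea, these genes serve to recognise resident and infiltrating macrophages, dendritic cells and neutrophils.

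The libraries held between 20158404 and 20880347 estimated counts, so depth was nearly equal. Levels are given as counts, as FPKM (reads scaled by effective gene length and by library total, the scale used here to compare the levels of different genes) or as CPM (normalized counts scaled to a library total of 1000000, after TMM). Rela itself was at 35.94, 35.28 and 35.40 FPKM in WT and at 6.35, 4.56 and 6.18 FPKM in KO, lower in every library labelled KO. Of 13305 genes with enough counts to be tested, 62.0% were called at an adjusted p of 0.05 (31.8% higher and 30.2% lower in KO), and these shares are the background for every count of called genes given here. A gene was tested when at least 3 libraries reached the CPM that 10 counts give at the median library total, so a gene near 0 in WT could enter through its KO libraries alone, and a higher call is then favoured by the filter. With the stricter threshold of the study (adjusted p of at most 0.001 and a fold of 2), the shares were 11.6% higher and 8.24% lower. The epithelial identity of the tissue was visible in the markers, as Krt12 was at 22280 ± 636 FPKM in WT and 4114 ± 809 FPKM in KO (mean ± SD, n = 3 per group, as for all values below). Of 8 corneal epithelial markers, 7 were lower in KO, and Trp63 was not called. One library stood apart in genes listed here as neutrophil markers: WT 2 held 160 counts of S100a8 and 1263 of S100a9. WT 1 held 0 and 17, and WT 3 held 1 and 28. Among other listed neutrophil markers, WT 2 had the lowest WT count of Ly6g and the highest of Ltf.

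Itgam, Itgax and Itgad lie side by side. Itgam (gene 16409) spans positions 128062640 to 128118491 of chromosome 7 on the plus strand of GRCm38, followed by Itgax (gene 16411, 128129530 to 128150657) and Itgad (gene 381924, 128173933 to 128229744). Itgal (gene 16408) lies farther up the same chromosome, from 127296230 to 127335137, while Itgb2 (gene 16414) is on chromosome 10, from 77530329 to 77565681. The longest GENCODE transcripts of Itgam and Itgax each have 30 exons, those of Itgal and Itgad 31, and that of Itgb2 16. The stretch before the gene start is shown for Itgam and Itgax because RefSeq (GRCm38.p6) sequences matched only these 2 of the 5 members. Capitals mark GAGGAA on either strand, a core sequence recognised by PU.1, the myeloid regulator encoded by Spi1.

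Itgam, chr7:128062390-128062639, plus strand: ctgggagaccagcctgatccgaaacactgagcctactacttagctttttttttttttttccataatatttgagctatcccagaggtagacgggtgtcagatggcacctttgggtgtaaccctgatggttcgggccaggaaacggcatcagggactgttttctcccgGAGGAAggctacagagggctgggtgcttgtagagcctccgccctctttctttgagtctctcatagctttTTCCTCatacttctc

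Itgax, chr7:128129300-128129529, plus strand: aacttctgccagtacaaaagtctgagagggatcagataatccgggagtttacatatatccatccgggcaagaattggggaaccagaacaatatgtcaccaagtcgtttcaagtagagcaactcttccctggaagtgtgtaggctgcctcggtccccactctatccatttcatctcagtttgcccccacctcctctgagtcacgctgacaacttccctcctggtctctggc

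The window before Itgam held 2 matches to GAGGAA, at 84 bases before the gene start on the plus strand and at 15 bases before it on the minus strand, whereas the Itgax window, which at 230 bases is shorter than the 250 bases of Itgam, held 0. Among 32851 promoter windows cut to 250 bases, 23.3% held at least 1 match and 3.5% held 2 or more, and cut to 230 bases 21.3% held at least 1. The Itgam window also held 1 match to GGGCGG, an Sp1 core present in 32.7% of windows of 250 bases, and the Itgax window held 1 match to CCAAT, present in 32.2% of windows of 230 bases; these motifs do not overlap GAGGAA. Neither window held the NF-κB consensus, which 3.9% of windows of 250 bases and 3.6% of windows of 230 bases held. These matches are descriptions of the sequence only.

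Itgam was abundant in WT epithelium and lower, but still abundant, in KO. It had 5614.67, 4998.64 and 6483.03 estimated counts in the WT libraries and 2707.98, 3678.68 and 4060.33 in the KO libraries. Per length this was 57.36, 50.89 and 65.71 FPKM in WT and 27.55, 38.50 and 41.03 FPKM in KO. All 3 KO values lay below all 3 WT values, with KO 1 the lowest of the 6 libraries. The means were 57.99 ± 7.43 and 35.69 ± 7.16 FPKM, and the fitted log2 fold change was -0.60 (SE 0.163), which left 65.8% of the WT level. Within each library, Itgam ranked above 92.6% to 94.5% of the 17866 genes in WT and above 86.4% to 90.8% in KO.

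The beta subunit gene Itgb2 went the other way, from a level close to nothing. Its counts were 0, 0 and 7 in the WT libraries against 59, 58 and 94 in the KO libraries. In FPKM it was listed at 0, 0 and 0.12 in WT and at 1.01, 1.01 and 1.56 in KO. The groups did not overlap, a property shared by 68.6% of the tested genes. On the log2 scale Itgb2 rose by 4.94 (SE 0.744, adjusted p = 0.000563), but its size rested on the 7 counts of WT 3: without that library it was 9.19, while the call remained. The floor of 3 counts corresponded to 0.0507 to 0.0525 FPKM for this gene, so Itgb2 transcripts in WT 1 and WT 2 were not detectable above that level.

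The other alpha subunit genes followed Itgb2. Itgal counts were 1, 4 and 8 in WT against 40, 38 and 89 in KO (log2 fold change 3.75, SE 0.593, adjusted p = 0.000737). Itgax counts were 14, 6 and 11 in WT against 118.77, 104 and 185.13 in KO (log2 fold change 3.81, SE 0.353, adjusted p = 4.27e-05). In both genes every KO library lay above every WT library, and KO 3 was the highest. Itgad was close to undetected, with 0 counts in each WT library and 2.23, 0 and 0.87 in KO, and did not enter the test. Of the 4 members that passed the filter on low counts, Itgal, Itgax and Itgb2 were called higher, with 31.8% of all tested genes called so, and Itgam was lower. As those 3 genes passed only with their KO libraries, where they were high, their count is a description and nothing is read from it against the background. Because these were bulk samples, fewer cells of a type and less RNA per cell cannot be told apart for any of them.

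**Figure D1:**
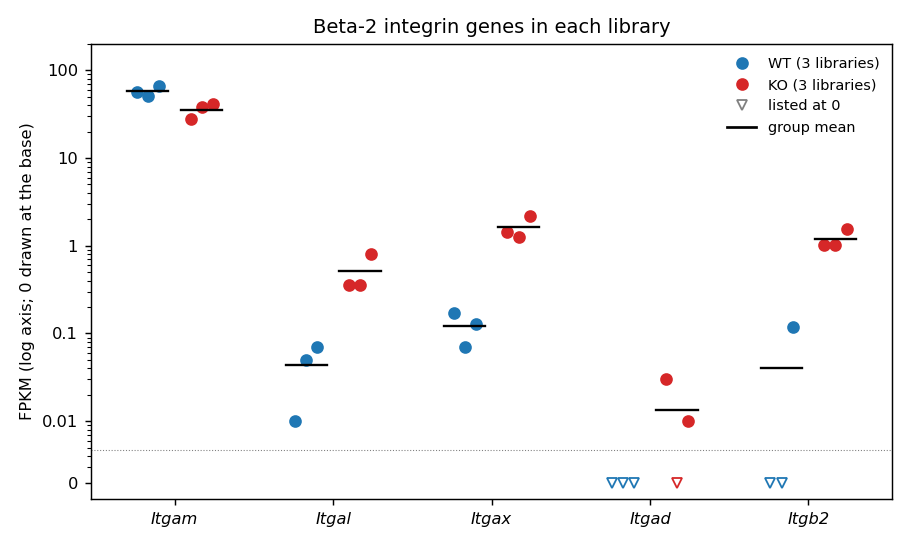
FPKM (log axis, with 0 drawn at the base) of the 5 beta-2 integrin genes in the 3 WT and 3 KO libraries, 1 point per library, with a bar at each group mean. Itgam lay between 27.55 and 65.71 FPKM in all 6 libraries, whereas no other member passed 2.18 FPKM, and Itgal, Itgax and Itgb2 were higher in every KO library than in any WT library.

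Set against each other in order of WT level, the members formed a single high gene and 4 low ones. Mean WT FPKM was 57.99 for Itgam, 0.123 ± 0.0503 for Itgax, 0.0433 for Itgal and 0.04 for Itgb2, and 0 for Itgad. The values of Itgal and Itgb2 overlapped in WT, and the order of these 2 low genes was not separable from their spread. In KO, the order was Itgam at 35.69, Itgax at 1.62 ± 0.488, Itgb2 at 1.19, Itgal at 0.510 and Itgad at 0.0133 FPKM. In absolute terms the mean fell by 22.3 FPKM for Itgam and rose by 1.5 for Itgax, 1.15 for Itgb2 and 0.467 FPKM for Itgal. The gains of the low members were thus far smaller than the loss of Itgam on the same scale.

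The ratio of Itgam to its partner differed widely between genotypes. In FPKM, Itgam was at least 1120 times Itgb2 in WT 1 and at least 999 times in WT 2, taking 3 counts as the floor of Itgb2 per library. In WT 3 the ratio was 548 (95% Poisson interval of the Itgb2 count, 266 to 1360). In KO it was 27.3, 38.1 and 26.3, or 30.6 ± 6.56. No KO interval reached the WT range, the highest KO bound being 50.2. These intervals cover counting error only, since PCR copies were not told apart.

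**Figure D2:**
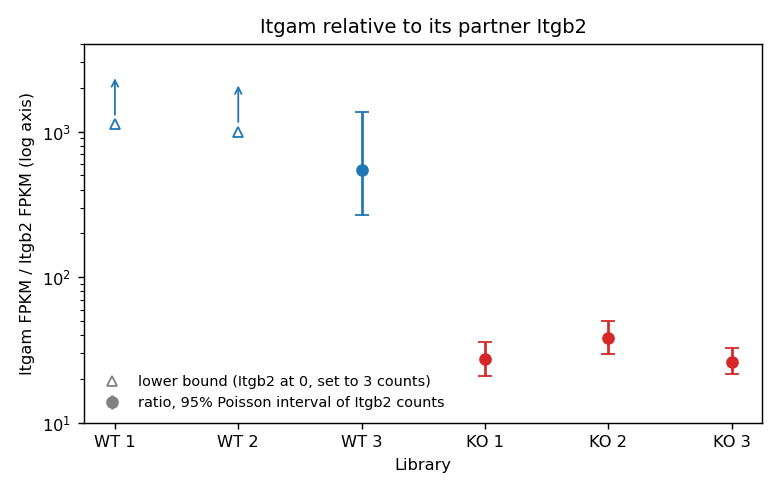
Ratio of Itgam to Itgb2 FPKM (log axis) in each library, with 95% Poisson intervals of the Itgb2 counts; open triangles with arrows are lower bounds for the 2 libraries in which Itgb2 was at 0. The WT ratio of WT 3 was 548 and the KO ratios lay between 26.3 and 38.1.

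Without Itgam, the alpha transcripts of the family exceeded those of Itgb2 by far less. In KO, the summed FPKM of Itgal, Itgax and Itgad was 1.79, 1.61 and 1.92 times that of Itgb2 (1.77 ± 0.156). In WT it was 1.67 times in WT 3, on 7 counts of Itgb2, and at least 3.52 times in WT 1 and 2.36 times in WT 2 with the floor of 3 counts. Itgam supplied 99.69%, 99.76% and 99.70% of the beta-2 alpha subunit FPKM in WT and 93.84%, 95.94% and 93.19% in KO. The ratio without Itgam thus lay inside the KO range in WT 3 and above it in WT 1 and WT 2, all on few counts.

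Reads that fit several genes were examined for each member by cutting the GENCODE M21 transcripts into 50-base words, the read length. Itgam had 5128 such words, and 3402 of them also occurred in Gm49368, an annotated protein-coding gene on the same strand (128062683 to 128128160). Its longest transcript has 27 exons in common with the longest Itgam transcript and ends in an exon of 1353 bases beyond the Itgam 3′ end, between Itgam and Itgax. Gm49368 was not analysed here, so reads from its shared exons cannot be told apart from those of Itgam. No Itgam word was found in Itgax, Itgad, Itgal or Itgb2. Itgax shared 384 of 4790 words with Itgad, which makes the split between these 2 genes uncertain, Itgb2 shared 34 with the annotated gene Gm14699, and Itgal shared 0. Whether counting used strand is not stated, so antisense reads could not be separated.

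Itgam was then set beside marker genes of leukocytes, in which it is normally found. Of 69 markers chosen for pan-leukocyte, macrophage, neutrophil, Langerhans and dendritic cell, lymphocyte and mast cell types, 67 were in the table, and 52 of these had a WT mean under 1 FPKM. Elane, Ngp, Mmp8, Clec9a, Cd209a, Cd79a, Ms4a1, Nkg7, Mcpt4, Cma1, Fcer1a and Ms4a2 were among those at 0 in every WT library. Ptprc, encoding the leukocyte antigen CD45, was at 0.13, 0.05 and 0.08 FPKM in WT and 1.03, 0.84 and 1.19 FPKM in KO. The macrophage receptor gene Csf1r was at 0.24, 0.03 and 0.22 FPKM in WT and 1.87, 2.01 and 1.96 FPKM in KO. Itgam thus exceeded Ptprc 441, 1020 and 821 times in WT, and 26.7, 45.8 and 34.5 times in KO.

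Only Arhgdib and Kit had a WT mean FPKM above that of Itgam among the 67 markers, and without WT 2 it was 1 marker, Kit. Arhgdib, a regulator of small GTPases, was at 59.81, 122.22 and 28.91 FPKM in WT and 76.54, 70.83 and 144.11 FPKM in KO, with wide overlap (adjusted p = 0.321). Kit, a receptor tyrosine kinase listed for mast cells, was at 73.75, 48.47 and 55.47 FPKM in WT and fell to 4.53, 4.73 and 5.85 FPKM in KO. The mast cell protease gene Cpa3 was at 0.807 ± 0.161 FPKM in WT, and the other 4 mast cell markers were at 0 there. Cd68, a lysosomal glycoprotein gene listed for macrophages, had 24.8 ± 2.71 FPKM in WT and 24.6 ± 4.11 FPKM in KO (adjusted p = 0.627). The WT mean of S100a9, 42.3 ± 69.5 FPKM, rested on WT 2, where it reached 122.61 FPKM, and below Cd68 came Ltf, encoding lactoferrin, at 14.2 ± 4.14 FPKM.

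In the test across all genes, 45 of the markers passed the filter, and 38 were higher and 3 lower in KO (Ly6g, Cpa3 and Kit), with a median log2 fold change of 2.98 against 0.006 over all genes tested. The shares over all tested genes were 31.8% higher and 30.2% lower. Of these 45, 25 were below the filter level in at least 1 WT library and passed only with their KO libraries, so this count and median rest in part on the filter. Among the 20 that reached the filter level in every WT library, 14 were higher, 3 lower and 3 not called. Without WT 2, 40 were higher. Lyz2, encoding lysozyme, went from counts of 0, 2 and 2 in WT to 125.28, 209.71 and 226.93 in KO. The dendritic cell genes Cd74 and H2-Aa, which serve antigen presentation, rose by 3.01 and 3.90 on the log2 scale. The summed FPKM of the 67 markers ran from 166 to 379 in WT and from 729 to 1640 in KO. Between the groups it differed in the direction of Itgal, Itgax and Itgb2 and opposite to Itgam. The libraries within KO did not follow this, as KO 2 had the largest sum but the lowest counts of Itgal, Itgax and Itgb2. S100a8 and S100a9, listed here as neutrophil markers, carried much of this sum, with 397 to 1360 FPKM together in KO and 144 FPKM in WT 2. Without them the other 65 markers summed to 163 to 235 FPKM in WT and 282 to 461 FPKM in KO. Of 7 tested neutrophil markers, 6 were higher and Ly6g was lower in KO, and 2 of the 7 passed the filter only with KO libraries. Elane, Ngp and Mmp8 did not pass the filter on low counts. The part of the leukocyte markers in the change of Itgal, Itgax and Itgb2 was not tested. Markers of the underlying stroma moved as well, with 4 of 5 tested genes higher and Pdgfra lower, and the 1 vessel marker tested, Pecam1, was higher; 3 of these stromal genes and Pecam1 passed the filter only with KO libraries.

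**Figure D3:**
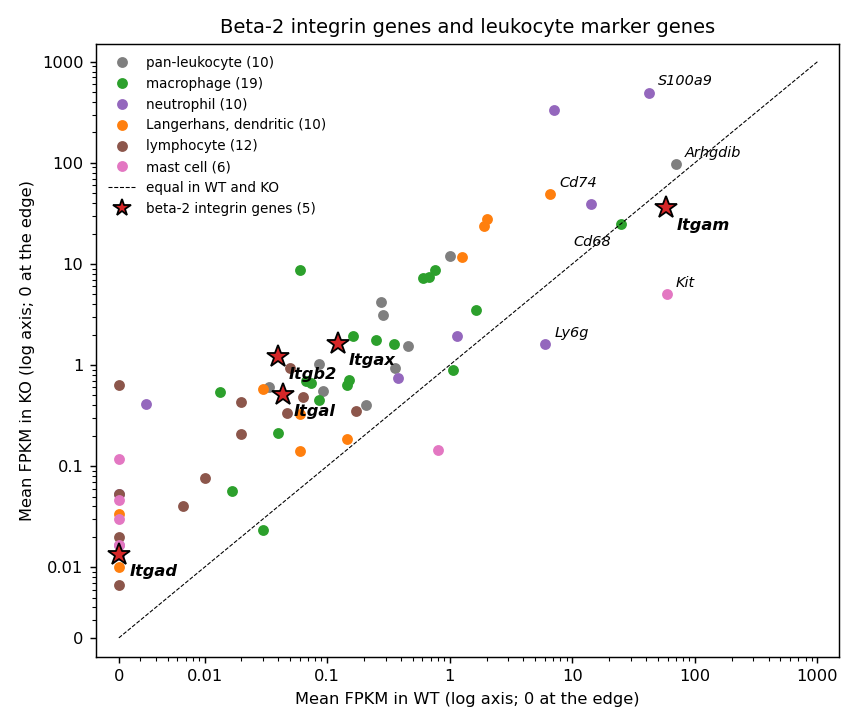
Mean FPKM in KO against mean FPKM in WT (log axes, with 0 at the edge; n = 3 libraries per group) for 67 leukocyte marker genes, coloured by cell type, and the 5 beta-2 integrin genes as stars. Most markers and Itgal, Itgax and Itgb2 lay above the line of equal level, whereas Itgam, at 57.99 and 35.69 FPKM, lay below it and to the right of most markers.

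Other integrins gave a second scale for Itgam. Epithelial cells are anchored to the basement membrane by alpha-6 beta-4 in hemidesmosomes and by alpha-3 beta-1. Itga6 was at 68.60, 83.79 and 70.10 FPKM in WT and Itgb4 at 85.72, 100.04 and 65.02 FPKM, so Itgam stood beside the main hemidesmosomal genes. Among all 26 integrin genes, only Itga6 and Itgb4 had a higher WT mean. Itgam was 0.836, 0.607 and 0.937 times Itga6 in WT and 0.611, 0.721 and 0.782 times in KO. Of the 21 integrin genes outside the beta-2 family, 17 were tested, with 4 higher, 7 lower and 6 not called in KO. The share called, 64.7%, was near the 62.0% of all tested genes, and of the 4 higher Itgae passed the filter only with KO libraries.

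Several integrin genes for the basement membrane and matrix fell. Itga3 dropped by 1.53, Itgb4 by 1.12 and Itga6 by 0.47 on the log2 scale (adjusted p = 1.82e-05, 0.000306 and 0.00822), while Itgb1, the partner of Itga3, was at 34.2 ± 2.65 FPKM in WT and 32.6 ± 6.61 FPKM in KO (adjusted p = 0.871). Itga5, encoding the fibronectin receptor alpha subunit, was at 0.15, 0.13 and 0.12 FPKM in WT and rose to 1.29, 0.96 and 1.13 FPKM in KO. The other leukocyte integrin beta gene, Itgb7, also had a high level in WT, at 25.39, 12.92 and 20.19 FPKM, and fell to 3.65, 2.92 and 3.93 FPKM in KO (log2 fold change -2.37, SE 0.244, adjusted p = 7.29e-05). Its known alpha partners were low: Itga4 was at 0.507 ± 0.0153 FPKM in WT and Itgae at 0.030 ± 0.020 FPKM. Itgae, which marks intraepithelial T cells and some dendritic cells, rose to 0.483 ± 0.232 FPKM in KO (log2 fold change 4.11, SE 0.593, adjusted p = 0.000451). It passed the filter only with its KO libraries, where it was high, so this call was favoured by the filter.

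**Figure D4:**
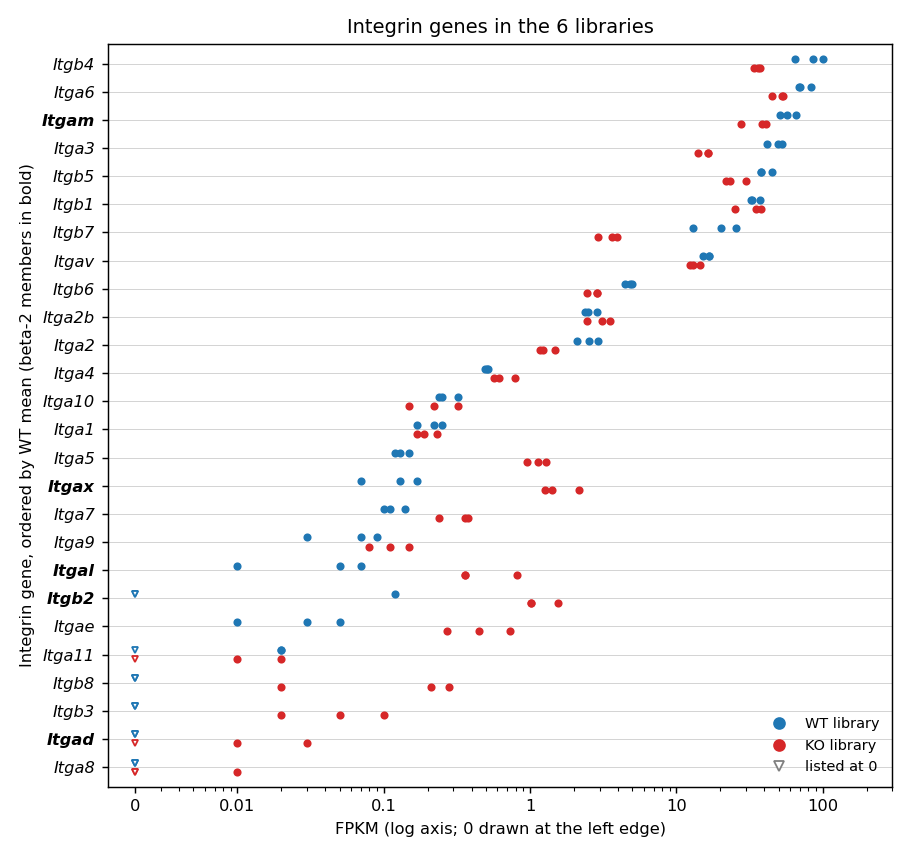
FPKM (log axis, with 0 at the left edge) of 26 integrin genes in the 3 WT and 3 KO libraries, ordered by WT mean, with the beta-2 members in bold. Itgam came next to Itgb4 and Itga6 at the top of the WT order, while Itgb2, Itgal, Itgax and Itgad were in the lower part, where Itgal, Itgax and Itgb2 shifted up in KO.

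The ligands of beta-2 integrins were examined next. Of 13 listed ligands, 10 were in the table (the fibrinogen chain genes Fga, Fgb and Fgg were not analysed here) and 6 were tested. In KO 4 were higher, each of which passed the filter only with KO libraries, and 2 were lower. The shares over all tested genes were 31.8% higher and 30.2% lower. Icam1, the endothelial and epithelial ligand of LFA-1 and Mac-1, was counted 9, 16 and 24 times in WT against 233, 186 and 203 times in KO (log2 fold change 3.76, SE 0.299, adjusted p = 1.9e-05). Thy1, a ligand of Mac-1, was counted 2, 5 and 0 times in WT against 191, 84 and 159 times in KO (log2 fold change 5.99, SE 0.601, adjusted p = 6.33e-05). The groups of both genes were far apart. C3, whose cleavage product iC3b is the classical ligand of Mac-1, went the other way, from 4.38, 12.86 and 5.57 FPKM in WT to 0.52, 0.91 and 0.66 FPKM in KO (log2 fold change -3.50, SE 0.456, adjusted p = 0.000257). F11r, encoding the junction protein JAM-A that binds LFA-1, was the most abundant ligand gene, at 151 ± 5.5 FPKM in WT and 94.1 ± 8.19 FPKM in KO, and fell by 0.59 on the log2 scale. Icam5 and Ager rose from under 0.3 FPKM on average, and Vcam1, Icam2, Icam4 and Jam3 did not pass the filter on low counts.

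Integrins are switched on from inside the cell when talin and a kindlin bind the beta tail. Kindlin-3, encoded by Fermt3, is the kindlin of blood cells, and it too was abundant in WT. Fermt3 counts were 2961.04, 2449.04 and 2502.99 in WT against 728.94, 733.63 and 751.78 in KO, or 49.2 ± 5.35 and 13.9 ± 0.275 FPKM (log2 fold change -1.73, SE 0.0947, adjusted p = 2.83e-06). Itgam to Fermt3 was 1.04, 1.11 and 1.41 in WT and 2.03, 2.73 and 2.95 in KO, a difference that was not tested. The talin gene Tln1 and the epithelial kindlin gene Fermt1 fell by 0.89 and 1.25 on the log2 scale (adjusted p = 6.84e-05 and 1.61e-05). Rap1b, the small GTPase that recruits talin, was at 62.5 ± 6.47 FPKM in WT and 55.0 ± 6.4 FPKM in KO and was not called (adjusted p = 0.526).

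Further activation genes differed among themselves. Apbb1ip, encoding the Rap1 effector RIAM, Fyb, encoding the adaptor ADAP, and Cytip were at 0.0667, 0.107 and 0.0167 FPKM on average in WT and rose to 0.400, 0.910 and 0.873 FPKM in KO. Skap2, an adaptor that binds ADAP, was at 14.9 FPKM on average in WT and was not called (adjusted p = 0.0879). Flna, encoding filamin A, which competes with talin for beta tails, rose by 0.71 on the log2 scale. In total, 15 of the 17 activation genes were tested, with 5 higher, 6 lower and 4 not called. Over all tested genes, 31.8% were higher and 30.2% lower. Apbb1ip, Fyb and Cytip passed the filter only with KO libraries, where they were high, so their calls were favoured by the filter. The 6 lower ones, Tln1, Fermt1, Fermt3, Rassf5, Cyth1 and Sharpin, each exceeded 20 FPKM in the WT mean. So did Flna, which was called higher, and Rap1a and Rap1b, which were not called.

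Signalling downstream of beta-2 integrins runs through ITAM adaptors, Src family kinases and Syk. The ITAM adaptor genes Tyrobp and Fcer1g rose from 0.300 ± 0.104 and 0.480 ± 0.0436 FPKM in WT to 5.78 ± 0.742 and 5.78 ± 1.32 FPKM in KO (adjusted p = 1.53e-05 and 2.43e-05). Fgr, a myeloid Src family kinase, and Lcp2, encoding the adaptor SLP-76, rose from averages under 0.04 FPKM to 0.273 and 0.283 FPKM. Syk, the kinase recruited by ITAM adaptors, was higher in WT, at 17.15, 14.80 and 15.62 FPKM, than in KO, at 4.64, 4.23 and 3.69 FPKM (log2 fold change -1.77, SE 0.114, adjusted p = 6.35e-06). Vav3, an exchange factor for small GTPases, was the most abundant gene of the list in KO, at 32.2 ± 5.11 FPKM against 8.63 ± 0.936 FPKM in WT. Of the 11 signalling genes tested, 8 were higher, Syk was lower, and Lyn and Pik3cd were not called. However, 6 of the 8 passed the filter only with KO libraries. Among the 5 at the filter level in every WT library, 2 were higher, 1 lower and 2 not called. The shares over all tested genes were 31.8% higher and 30.2% lower.

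**Figure D5:**
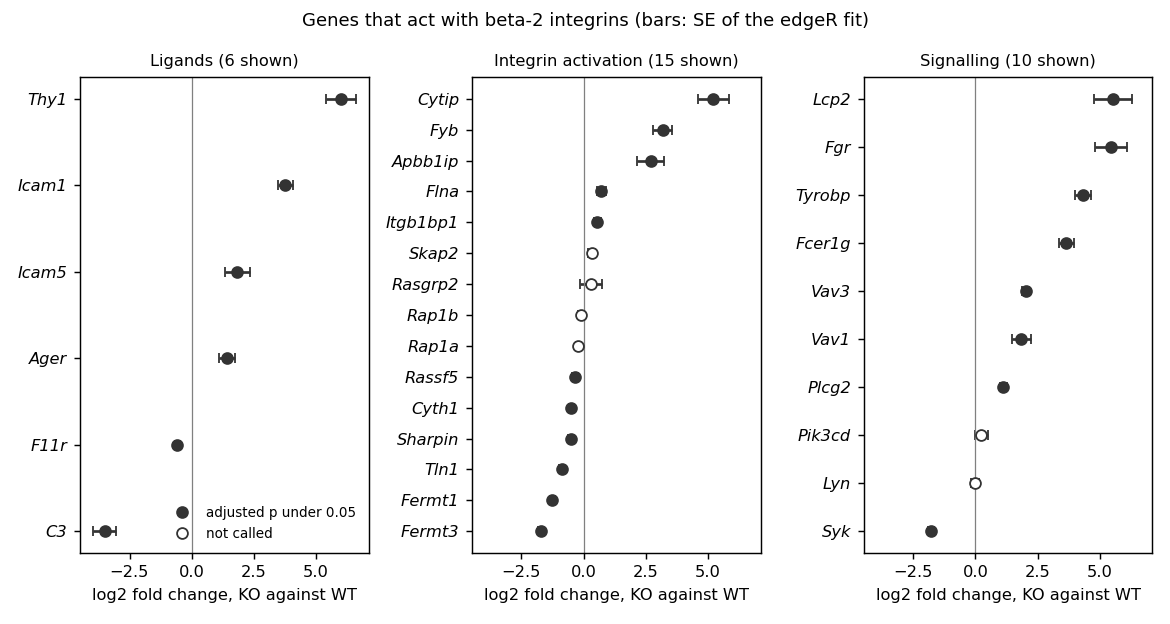
Fitted log2 fold change (KO against WT) with its SE for tested genes of the ligand, activation and signalling lists, 1 row per gene, leaving out 1 signalling gene not reported by name, with filled points for an adjusted p under 0.05. Thy1, Cytip, Lcp2 and Fgr rose by over 5 on the log2 scale, whereas Fermt3, Syk and C3 were the lowest points of their lists.

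Among 10 tested transcription factor genes known to act in myeloid cells, 4 were called higher and 0 lower by edgeR. The share called was 40.0%, against 62.0% over all tested genes (31.8% higher and 30.2% lower). Spi1, encoding PU.1, was at 1.22, 1.07 and 1.52 FPKM in WT and 1.54, 1.55 and 1.25 FPKM in KO, with overlap between the groups (log2 fold change 0.45, SE 0.244, adjusted p = 0.144). Cebpa and Cebpb rose from 12.6 ± 0.482 and 13.3 ± 2.33 FPKM to 27.4 ± 4.37 and 36.5 ± 7.61 FPKM. Klf4, a factor of both epithelium and monocytes, was the most abundant of the list, at 396 ± 15.0 FPKM in WT and 296 ± 56.7 FPKM in KO (adjusted p = 0.113). Of 10 regulator genes tested, 4 were higher (Cebpa, Cebpb, Runx3 and Egr1), 0 were lower and 6 were not called by edgeR. Runx3 passed the filter only with KO libraries. At an unadjusted p under 0.05 edgeR also gave 0 lower, as did DESeq2 with adjustment, while limma on log2(FPKM + 1) called 2 lower, Klf4 and Sp1.

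The position of Itgam was not part of the choice, so its neighbours were examined. Within 250 kb of the Itgam span, the table held 18 genes outside the beta-2 family, of which 16 were tested, with 1 higher, 6 lower and 9 not called. The share called was 43.8%, against 62.0% over all tested genes (31.8% higher and 30.2% lower). Pycard, encoding the inflammasome adaptor ASC and starting 74.4 kb before Itgam, was at 27.44, 29.97 and 33.00 FPKM in WT and 67.23, 83.37 and 71.79 FPKM in KO (log2 fold change 1.39, SE 0.113, adjusted p = 2.15e-05). Prss8, encoding the epithelial serine protease prostasin, was at 77.5 ± 9.05 FPKM in WT and 69.7 ± 11.2 FPKM in KO (adjusted p = 0.739). The closest listed genes were Trim72 at 3.37 ± 0.58 and 2.39 ± 0.887 FPKM on one side and Itgax on the other, both low in WT. High and low genes were thus interleaved, and Prss8 was among the neighbours whose WT level exceeded that of Itgam.

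Finally, profiles over the 6 libraries were compared by the root mean square difference of centred log2(CPM + 1) values among 12428 genes. The genes most like Itgam were Hemk1, Ankdd1b, Prune1, Ptprh and Fuom, with differences from 0.0502 to 0.0713. All had KO 1 as their lowest library, as Itgam did, which follows from choosing them by likeness to it. For Itgb2 they were Smtnl2, Tcf7, Coro1a, Trex2 and Smpdl3b, with differences from 0.114 to 0.145. Their fitted log2 fold changes, from 2.12 (Trex2) to 3.60 (Tcf7), were smaller than the 4.94 of Itgb2. The added 1 shrinks the change of a gene near 0 CPM, so this likeness rests in part on the scale. Coro1a, a leukocyte actin regulator, was in the marker list. As Itgam was lower and Itgb2 higher in KO, the choice by likeness left no room for a gene in both sets. These likenesses are descriptions over 6 libraries in 2 groups.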

How the data were processed

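Corneal epithelium RNA of 3 WT and 3 KO mice was sequenced. Per the methods, libraries were depleted of ribosomal RNA and read as 50-base single ends with BGI chemistry, although an Illumina kit is given in the labels. Reads were cleaned by the authors with SOAPnuke, placed by Bowtie2 2.2.5 and quantified by RSEM 1.2.12. The labels name mm9, but the coordinates in the table match GRCm38. The deposited estimated counts are RSEM values that divide reads fitting several genes among them, which makes near-identical sequences uncertain. The deposited FPKM values are these counts per effective length and per library size. The deposited TPM values were only checked to sum to 1000000. Group averages, fold changes and p-values of the authors were not used.

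Groups came from the titles. The 5 members and all gene lists were chosen with earlier results of these data known. The estimated counts, rounded to whole numbers, were fitted with edgeR 4.0.16 in R 4.3.3 (TMM, filterByExpr, glmQLFit, glmQLFTest, genotype only), with Benjamini-Hochberg adjustment over 13305 genes; SE is the log2 fold change over the square root of F. All adjusted p-values in the report are from this test. Alternatives were RLE factors, no filter on low counts, DESeq2 1.42.0, limma 3.58.1 on log2(FPKM + 1) and log2(FPKM + 0.1), the replicate number as a block and leaving out each library. The fit was tested on simulated data. Genes given with values were Rela, the members, list genes (in lists of more than 6 measured genes the 3 most abundant, the 3 most changed among those called, and genes whose role with beta-2 integrins was the subject), genes within 250 kb of Itgam and the 5 nearest profiles of Itgam and of Itgb2 (mean count of at least 20). The markers listed as 0 in WT, Kdr and Skap2 were named after their values were seen. Word and motif searches used Python 3.11.15 with pandas 2.3.3 and numpy 2.4.6, and figures matplotlib 3.10.9. Replicate numbers in the titles count samples within a genotype, and nothing pairs the animals. At these totals 3 counts correspond to 0.137 to 0.152 CPM, the limit of detection used here. Mpo, Camp, Cdh5 and Emcn of the marker lists were not analysed here, and some other genes are counted in their lists but not reported here by name.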

Additional observations from a re-analysis of the deposited data

How the results depend on the processing

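Over 12 alternatives, Itgam stayed lower in KO (log2 fold change -0.72 to -0.46), and Itgal, Itgax and Itgb2 stayed higher and called (0.52 to 4.54, 1.21 to 4.08 and 1.07 to 9.19); the low ends come from log2(FPKM + 1), which shrinks low genes. The replicate block called 8083 genes against 8253, with 7914 called in both. Same-numbered samples had correlations of deviations of 0.065, -0.022 and 0.064, and not every sample correlated best with its own number, so the numbers were not used as a pairing. The block gave 2 higher genes near Itgam in place of 1, as did leaving out WT replicate 3 (range 1 to 2 over the left-out libraries). Myeloid regulators called lower numbered 2 in both limma fits and 0 to 2 with a library left out (2 without KO replicate 1). By CPM, with no length scaling, the KO ratio of Itgam to Itgb2 was 50.8, and 1 leukocyte marker was above Itgam in WT and 1 in KO. Leaving out each library in turn, an alternative chosen after seeing the data, gave 1 to 3 such markers in WT (1 without WT replicate 2) and 4 to 5 in KO. The WT ratio has no value without WT replicate 3. Genes near no change turned sign. Itgb1 was at -0.0828 and -0.0856 with limma pseudocounts of 1 and 0.1, and ran from -0.0716 to 0.177 with a library left out. Cd68 was at -0.0204 and -0.0215 in the limma fits and ran from -0.0343 to 0.222, Rap1b from -0.175 to 0.0078 and Prss8 from -0.206 to 0.0624 with a library left out. None of these passed the threshold, and the cause was not tested. The calls of Itga4, Rassf5, S100a9 and Ly6g were lost in some alternatives. In the other direction, 8 listed genes not called in the main fit were called in some, Klf4 and Sp1 among them. Arhgdib was called higher without WT replicate 2 (log2 fold change 1.23). Skap2 was called higher with the block (0.33), without WT replicate 2 (0.45) and without KO replicate 1 (0.41). At 0 to 14 counts per WT library, fold changes of Itgal, Itgax and Itgb2 have low precision.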

Other observations

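Kit, one of the markers that exceeded Itgam in the WT mean, lies on chromosome 5 (75574987 to 75656722) between Pdgfra (75151400 to 75198211), listed as a stromal marker, and Kdr (75932527 to 75979207), listed as a vessel marker. Kit and Pdgfra encode receptor tyrosine kinases, and they fell by 3.45 (SE 0.179) and 3.43 (SE 0.208) on the log2 scale (adjusted p = 2.2e-06 and 4.7e-06). Pdgfra was at 2.0, 1.7 and 2.38 FPKM in WT and at 0.17, 0.21 and 0.15 FPKM in KO. Its groups did not overlap, a property shared by 68.6% of the tested genes. Kdr was listed at 0 in every WT library, was counted 0, 1 and 2 times in KO, and was not tested. This arrangement was noticed after the values were seen, and no cause was tested.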
